A study of Mus musculus with 6 samples.

Results

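The selectins and leukocyte adhesion molecules examined here are 9 genes, chosen by name from the 21720 gene symbols of the deposited table. They are the selectins Sele and Selp, the selectin ligand Selplg, the immunoglobulin-family adhesion molecules Icam1, Vcam1 and Madcam1, and the integrin genes Itgal, Itgam and Itgb2. Tumours of H22, a mouse hepatocellular carcinoma line, were grown under the skin of wild-type female BALB/c mice aged 6 to 8 weeks. From a tumour volume of about 50 mm3, mice were gavaged once a day for 21 days with 0.2 mL of 0.5% carboxymethyl cellulose sodium (control group) or of the flavonoid luteolin at 200 mg/kg (luteolin group). RNA of whole tumours was sequenced in 3 libraries per group, and whether each library came from its own mouse is not given in the sources used here, so the p values measure the spread between these libraries. The libraries held between 61081637 and 80442954 counts each. Tumour and host are both mouse, so transcripts of tumour cells, vessels and leukocytes were counted together. Fewer cells of a type and less RNA per cell cannot be told apart in such samples.

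Leukocytes leave the blood in steps. Selectins on activated endothelium slow the passing cells, with E-selectin (Sele) made on endothelial cells and P-selectin (Selp) held in granules of endothelial cells and platelets. Both bind the mucin PSGL-1 (Selplg) on leukocytes. Chemokine signals then activate the leukocyte integrins. LFA-1, the pair of Itgal and Itgb2, and Mac-1, the pair of Itgam and Itgb2, bind ICAM-1, while VCAM-1 and MAdCAM-1 bind integrins that contain the Itga4 chain. Sele, Icam1 and Vcam1 are known to be induced in endothelial cells by TNF and interleukin-1 through NF-kappaB.

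Of the 9 genes, 8 passed the filter on low counts and 5 were up-regulated in luteolin-treated tumours. Here and below, up-regulated means a fold change over 2 together with p under 0.05 before adjustment, which is the study's threshold. These were Sele, Selp, Selplg, Icam1 and Itgal. Over all 14963 genes tested, 11.3% were up-regulated by this rule. Down-regulation at the same threshold was found for 0 of the 8 genes and for 1.52% of all genes tested. An unadjusted p under 0.05 was found for 5 of the 8 genes, all of them higher. It was found for 3061 of all 14963 genes tested, in either direction. The median log2 fold change was 1.35 for the 8 genes and -0.01 for all genes tested. With Benjamini-Hochberg adjustment in edgeR, 0 of the 8 genes had an adjusted p under 0.05, where 1.34% of all genes were higher and 0.187% lower. DESeq2, with its own normalization and filter, tested all 9 genes and placed 5 under this limit (8.83% of all genes were higher). With offsets for GC content and gene length, edgeR also placed 5, of 8 tested (4.13% higher). In both, these were the same 5 genes that passed the study's threshold. With voom 4 genes were under the limit, without Sele (12.6% of all genes higher). Selplg and Itgal were under it when at least 10 counts were required in every library (2.54% higher) and with the values divided by 4 (2.41% higher). Selplg alone was under it without luteolin replicate 2 (1.82% higher), and Sele alone without luteolin replicate 3 (0.993% higher).

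Promoter sequences from RefSeq on GRCm38.p6 were found for 5 of the 9 genes. Those of the 3 up-regulated endothelial genes are shown because their products capture leukocytes at the vessel wall, and because Sele and Icam1 share a short run of letters. Each is 300 bases long, from 250 bases before the annotated start to 50 after it, and capitals mark matches to GGNNATTCC on either strand.
Sele, chr1:164047984-164048283, plus strand: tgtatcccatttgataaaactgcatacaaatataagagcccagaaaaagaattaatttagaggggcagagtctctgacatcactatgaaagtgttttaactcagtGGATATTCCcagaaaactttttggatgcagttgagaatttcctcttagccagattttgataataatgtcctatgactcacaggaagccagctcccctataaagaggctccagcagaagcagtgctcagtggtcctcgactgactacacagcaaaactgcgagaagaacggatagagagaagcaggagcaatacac
Selp, chr1:164115014-164115313, plus strand: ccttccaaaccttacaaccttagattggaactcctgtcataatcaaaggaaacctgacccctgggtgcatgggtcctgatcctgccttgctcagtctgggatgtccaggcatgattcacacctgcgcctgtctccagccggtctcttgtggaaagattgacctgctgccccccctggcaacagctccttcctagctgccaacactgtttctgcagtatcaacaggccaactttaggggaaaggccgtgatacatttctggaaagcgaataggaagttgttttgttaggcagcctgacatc
Icam1, chr9:21015690-21015989, plus strand: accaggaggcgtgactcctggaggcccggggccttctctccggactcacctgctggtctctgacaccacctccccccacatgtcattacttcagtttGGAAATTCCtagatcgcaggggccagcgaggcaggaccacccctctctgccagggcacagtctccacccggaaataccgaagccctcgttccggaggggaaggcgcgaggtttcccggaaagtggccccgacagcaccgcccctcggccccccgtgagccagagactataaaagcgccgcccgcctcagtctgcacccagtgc
The match began 145 bases before the start in Sele and 153 bases before it in Icam1, and these letters were not in the window of Selp. GGNNATTCC was chosen after the Sele and Icam1 sequences had been seen, and 2.80% of all 32851 promoters of the table hold it on either strand. The longer NF-kappaB consensus, searched by its name, was found in Madcam1 alone among the 5 genes and in 4.51% of all promoters. TATAAA was found in Sele, from 49 bases before the annotated start, and in Icam1, where it lay within the 50 bases after it. GAGGAAG was found in Itgam before the start and, on the other strand, after it. Each of these motifs was in 13.6% of all promoters, and no motif overlapped another in the promoters of the 5 genes.

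Both endothelial selectin genes rose. Sele had 8, 8 and 17 counts in control replicates 1, 2 and 3 and 169, 373 and 24 counts in luteolin replicates 1, 2 and 3. In CPM, counts scaled to a common library total after TMM normalization, this was 0.114, 0.124 and 0.264 against 2.76, 4.43 and 0.375. Every luteolin library lay above every control library, but luteolin replicate 3 stood close to control replicate 3. This gave a log2 fold change of 3.91 for Sele (standard error 0.97, edgeR adjusted p = 0.10). Without luteolin replicate 2 it was 3.23. Since many low values of the table are multiples of 4, 8 counts may stand for fewer read pairs, and with the values divided by 4 Sele no longer passed the filter.

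Selp, the gene of P-selectin, was more abundant. It had 1.95, 3.86 and 3.16 CPM in control replicates 1, 2 and 3 and 14.4, 24.2 and 6.13 CPM in the luteolin replicates in the same order. The luteolin libraries were again all higher, with replicate 2 the highest and replicate 3 the lowest of its group. For Selp the log2 fold change was 2.33 (standard error 0.55, edgeR adjusted p = 0.0901).

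Selplg, which encodes the ligand that E-selectin and P-selectin bind, had 6.32, 7.63 and 7.29 CPM in the control libraries. The luteolin libraries had 18.7, 35.2 and 17.7 CPM. The lowest luteolin library was above the highest control library by more than the range of the control group. The log2 fold change of Selplg was 1.76 (standard error 0.33), and its edgeR adjusted p of 0.0552 was the smallest of the 8 genes. Without luteolin replicate 2 the log2 fold change of Selplg was 1.38, with an edgeR adjusted p of 0.0315.

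**Figure D1:**
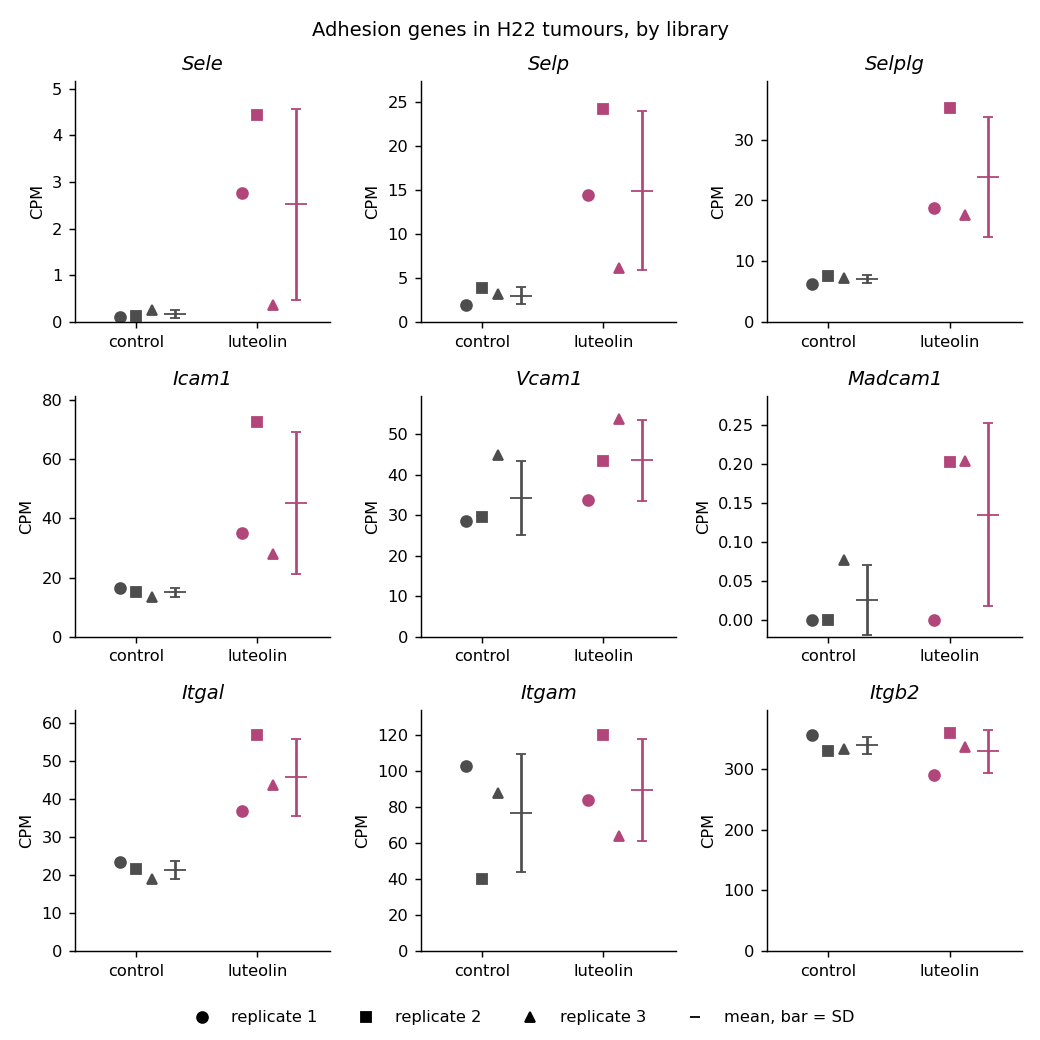
Level of each adhesion gene in CPM (vertical axes, linear, a scale for each gene) in the control and luteolin groups; symbols are replicates 1 to 3 and the bars are mean ± SD (n = 3 per group). The luteolin libraries lie above all control libraries for Sele, Selp, Selplg, Icam1 and Itgal, and the groups overlap for Vcam1, Madcam1, Itgam and Itgb2.

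Among the immunoglobulin-family genes, Icam1 rose and Vcam1 did not pass the test. Icam1, the gene of the endothelial and leukocyte ligand of LFA-1 and Mac-1, had 16.4, 15.2 and 13.5 CPM in control replicates 1, 2 and 3. In luteolin replicates 1, 2 and 3 it had 35.0, 72.6 and 28.1 CPM. The groups did not overlap, and luteolin replicate 2 was more than double each of the other luteolin libraries. The log2 fold change of Icam1 was 1.59 (standard error 0.37, edgeR adjusted p = 0.0862), and 1.084 without luteolin replicate 2. Vcam1 had 28.5, 29.5 and 44.9 CPM in the control libraries and 33.7, 43.3 and 53.7 CPM in the luteolin libraries. Its groups overlapped, since control replicate 3 exceeded luteolin replicates 1 and 2. For Vcam1 the estimate on the log2 scale was 0.35 (standard error 0.26, edgeR adjusted p = 0.508), which does not show that its level was the same in both groups.

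Madcam1, the gene of the mucosal and lymphoid addressin, was barely detected. It had 0, 0 and 5 counts in the control libraries and 0, 17 and 13 counts in the luteolin libraries, and it did not pass the filter. DESeq2, which did test Madcam1, gave a log2 fold change of 2.36 (DESeq2 adjusted p = 0.739). A count of 0 allows up to 3 counts, here up to 0.0429 CPM in control replicate 1, 0.0463 CPM in control replicate 2 and 0.0490 CPM in luteolin replicate 1, for counting error only. A difference was not detectable at this depth. Icam4 and Icam5 follow Icam1 on chromosome 9 of the RefSeq assembly and were added for their position. Icam4, an adhesion molecule of red cells, had 2.23, 2.46 and 1.67 CPM in the control libraries and 0.392, 1.31 and 1.03 CPM in the luteolin libraries. Its log2 fold change was -1.21 (edgeR adjusted p = 0.282), and that of Icam5, which is known from neurons, was -0.55 (edgeR adjusted p = 0.573). Both estimates lay on the opposite side of 0 from that of Icam1, and neither passed the threshold. Icam4 did pass it with voom, at -2.16 with an adjusted p of 0.0150, and with DESeq2, at least 10 counts in every library, the GC content and length offsets, values divided by 4 and without luteolin replicate 2 before adjustment.

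Of the integrin genes, Itgal rose, and Itgam and Itgb2 did not pass the test. Itgal, which encodes the alpha chain of LFA-1, had 23.5, 21.7 and 18.9 CPM in control replicates 1, 2 and 3. It had 36.9, 56.8 and 43.7 CPM in luteolin replicates 1, 2 and 3. Every luteolin library was above every control library. Itgal had a log2 fold change of 1.11 (standard error 0.21, edgeR adjusted p = 0.0619), and it fell to 0.93 without luteolin replicate 2, below the fold change limit. Itgam, the alpha chain of Mac-1 on myeloid cells, had 102.6, 39.9 and 87.7 CPM in the control libraries and 83.9, 119.8 and 64.2 CPM in the luteolin libraries. The range of the control group covered 2 of the 3 luteolin values. Its log2 fold change was 0.22 (standard error 0.38, edgeR adjusted p = 0.802) and turned to -0.11 without control replicate 2, to -0.04 without luteolin replicate 2 and to -0.03 with the GC content and length offsets. With voom it was 0.74 with an adjusted p of 0.108, again below the fold change limit.

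Itgb2, the beta chain that LFA-1 and Mac-1 share, was the most abundant of the 9 genes. It had 355, 329 and 333 CPM in control replicates 1, 2 and 3 and 291, 359 and 336 CPM in luteolin replicates 1, 2 and 3. The luteolin values enclosed the control values. Itgb2 had a log2 fold change of -0.04 (standard error 0.14, edgeR adjusted p = 0.912), and it was just above 0, at 0.004, with upper-quartile normalization. The next integrin genes on chromosome 7 after Itgam are Itgax and Itgad, which encode further alpha chains that pair with the Itgb2 chain and were added for their position. Itgax, known from dendritic cells and macrophages, had 90.4, 86.6 and 86.0 CPM in the control libraries and 133.9, 194.2 and 252.0 CPM in the luteolin libraries. Its log2 fold change was 1.15 (edgeR adjusted p = 0.0693). Itgad had 11, 12 and 0 counts in the control libraries and 60, 265 and 37 counts in the luteolin libraries, a log2 fold change of 3.76 (edgeR adjusted p = 0.168). Neither call held throughout. Itgax was below the fold change limit without luteolin replicate 3, at 0.86, and with voom at 0.84 and the GC content and length offsets at 0.91. Itgad missed the p limit without control replicate 1 and without luteolin replicate 2, and it was not tested with at least 10 counts in every library or with values divided by 4.

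**Figure D2:**
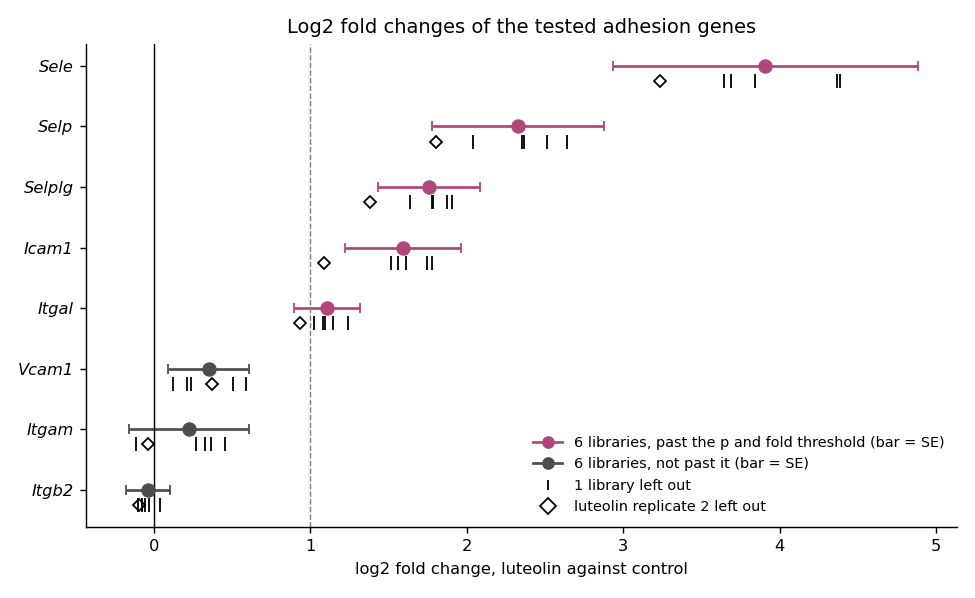
Log2 fold change of the 8 tested adhesion genes, luteolin against control (horizontal axis; circles with bars are the estimate and standard error from all 6 libraries). Ticks are the estimates with 1 library left out and diamonds those without luteolin replicate 2; the diamond is the lowest estimate for Sele, Selp, Selplg, Icam1 and Itgal, and that of Itgal is below the dashed line at 1.

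In 5 of the 9 genes the luteolin libraries were all above the control libraries, and in 0 they were all below. Over all genes tested, 15.8% lay above and 12.9% below in this way. Luteolin replicate 2 held the highest level of 7 of the 9 genes, and luteolin replicate 3 that of Vcam1 and Madcam1. Over all genes tested, luteolin replicate 2 held the highest level for 33.5%. Without this library, 4 of the 8 genes passed the study's threshold, and 7.52% of all genes tested were up-regulated. Itgal was the gene lost, as it was with voom, where 11.7% of all genes were up-regulated, and with the GC content and length offsets, where 9.47% were. With the replicate number as a block 5 passed, where 8.64% of all genes were up-regulated.

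Levels were compared between genes only per length, as mean CPM per kilobase of annotated exons (GENCODE M21). In the control group the order was Itgb2 at 111, Itgam at 15.3, Vcam1 at 3.87, Icam1 at 3.45, Itgal at 3.25, Selplg at 1.66, Selp at 0.677, Sele at 0.0574 and Madcam1 at 0.0180 CPM per kilobase. The ranges of Vcam1, Icam1 and Itgal overlapped, at 3.22 to 5.06, 3.10 to 3.77 and 2.88 to 3.57. Those of Sele and Madcam1 also overlapped, at 0.0393 to 0.0905 and 0 to 0.0540. Within each control library Icam1 was above Itgal, while the place of Vcam1 differed between the libraries. In the luteolin group Itgb2 had 108, Itgam 17.8, Icam1 10.4, Itgal 6.97, Selplg 5.59, Vcam1 4.91, Selp 3.38, Sele 0.866 and Madcam1 0.0941 CPM per kilobase. Here the ranges of each neighbouring pair from Itgam to Selp overlapped, as did those of Selp and Sele and those of Sele and Madcam1. In luteolin replicate 3 Madcam1, at 0.142, was above Sele, at 0.129. Within each luteolin library Itgam was above Icam1, Itgal above Selplg and Selp above Sele. The order of the other neighbouring pairs from Icam1 to Selp differed between the libraries and rests on the means. By the means, Vcam1 was above Icam1, Itgal and Selplg in the control group and below them in the luteolin group.

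The markers of endothelial cells and leukocytes were also higher in the luteolin group. The 16 endothelial markers summed to between 164 and 177 CPM in the control libraries and between 202 and 429 CPM in the luteolin libraries, and 5 of the 16 were up-regulated. Among the most abundant, Eng had a log2 fold change of 1.19, Cdh5 of 0.67 and Flt1 of 0.46, of which Eng alone passed the study's threshold. The 8 pan-leukocyte markers summed to between 718 and 766 CPM in the control libraries and between 951 and 1144 CPM in the luteolin libraries, with 6 of the 8 up-regulated. Ptprc, the gene of CD45, had a log2 fold change of 1.16 and Laptm5 of 1.09, while Lcp1, an actin-bundling protein, had -0.26 with an edgeR adjusted p of 0.358. Each adhesion gene was therefore also set against the mean log2 CPM of the tested markers in the same library, endothelial markers for Sele, Selp, Icam1, Vcam1 and Madcam1 and pan-leukocyte markers for Selplg, Itgal, Itgam and Itgb2. These means differed between the groups by 0.77 and 1.0995 on the log2 scale. The endothelial mean of luteolin replicate 3, at 2.53, lay within the control range of 2.50 to 2.72, and without luteolin replicate 2 the differences were 0.33 and 0.96. An exact two-sided permutation test of 3 libraries against 3 cannot go below p = 0.1, and over 9 genes the smallest Benjamini-Hochberg adjusted value reached was 0.18.

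Relative to the endothelial markers, the level of Sele was higher in the luteolin group by 2.44 on the log2 scale, that of Selp by 1.39 and that of Icam1 by 0.70, in all luteolin libraries above all control libraries (exact permutation p = 0.1 each). Relative to the same markers Vcam1 had a difference of -0.41 (exact permutation p = 0.5) and Madcam1 of 0.60 (exact permutation p = 0.7), with overlapping groups. Icam1 is also made by leukocytes, and it was not set against the pan-leukocyte markers. Their mean differed between the groups by 1.0995, more than the 0.77 of the endothelial mean. The difference of 0.70 for Icam1 therefore applies to the endothelial list alone. Relative to the pan-leukocyte markers, Selplg was higher by 0.58 on the log2 scale in all luteolin libraries (exact permutation p = 0.1). Itgal, which rose in CPM, had a relative difference of -0.02 with overlapping groups (exact permutation p = 1). The relative difference of Itgam was -0.82 (exact permutation p = 0.3). Itgb2 was lower relative to the leukocyte markers by 1.15 on the log2 scale (exact permutation p = 0.1). Its values of 3.19, 2.85 and 2.76 in control replicates 1, 2 and 3 stood above those of 1.716, 1.638 and 1.998 in luteolin replicates 1, 2 and 3. In CPM the log2 fold change of Itgb2 was -0.04, while the marker mean rose by 1.0995. Whether the RNA of Itgb2 came from leukocytes alone was not tested. Without luteolin replicate 2 these differences stayed above 0 for Sele at 2.18, Selp at 1.37, Icam1 at 0.73 and Selplg at 0.40, and below 0 for Itgb2 at -1.076.

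**Figure D3:**
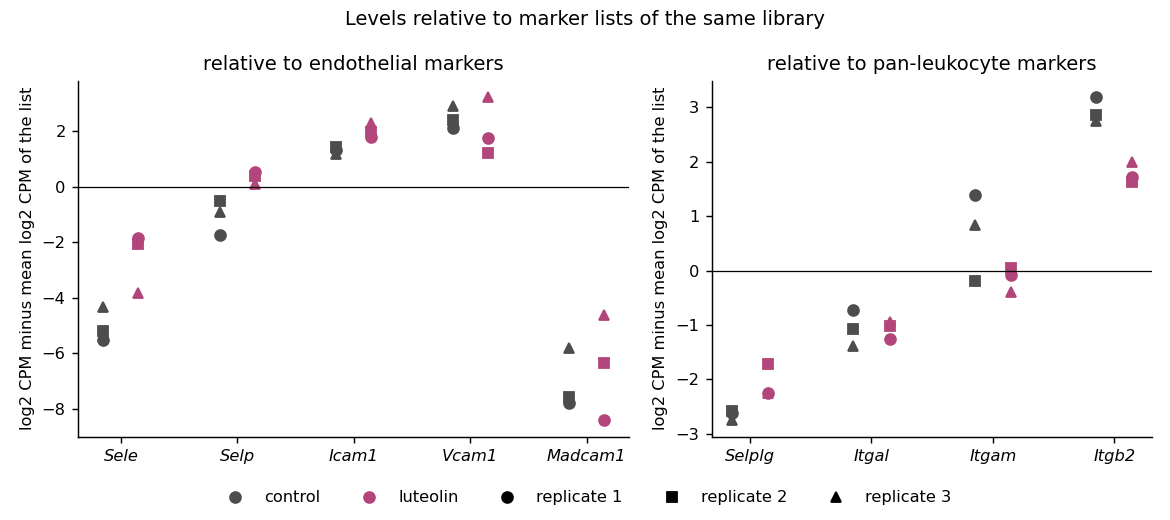
Level of each adhesion gene relative to markers of the same library (vertical axes, log2 CPM minus the mean log2 CPM of the endothelial markers, left, or the pan-leukocyte markers, right); colours are groups and symbols replicates. Sele, Selp, Icam1 and Selplg lie higher in all luteolin libraries, Itgb2 lies lower in all of them, and Itgal overlaps.

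The summed levels of markers of single cell types were also higher. All 10 T-cell markers were up-regulated, with summed levels of 15.5 to 18.0 CPM in the control libraries and 54.0 to 101 CPM in the luteolin libraries, and Lck, Cd4 and Cd3g had log2 fold changes of 1.97, 1.63 and 2.33. The neutrophil markers summed to between 19.0 and 22.4 CPM against 94.4 to 180 CPM, with 6 of 8 tested genes up-regulated, among them S100a9 with a log2 fold change of 4.70, Cxcr2 with 4.27 and Csf3r with 2.25. The other 2 tested, added after their values were seen, had overlapping groups, with Ly6g at -0.57 and Retnlg at 0.43, and 3 genes of that list had 0 counts in all control libraries. The macrophage and monocyte markers summed to between 993 and 1148 CPM against 1566 to 2297 CPM, and 3 of 10 were up-regulated. Their most abundant genes C1qa, C1qc and Mrc1 had log2 fold changes of 0.80, 0.91 and 0.74, short of the fold change limit. The B-cell markers summed to between 11.8 and 13.5 CPM against 14.4 to 43.5 CPM, with 2 of 6 tested genes up-regulated (Cd79a and Cd79b, with log2 fold changes of 1.51 and 2.17), and Cd22 had 0.75.

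Platelets can also carry P-selectin, and their markers summed to between 14.5 and 20.8 CPM in the control libraries and 22.04 to 43.0 CPM in the luteolin libraries. Of the 4 tested, Pf4 was up-regulated with a log2 fold change of 1.85, while Itga2b had -0.03 and Gp1ba -0.09, and Gp6 had 0 counts in all 6 libraries. The high endothelial venule and lymph node markers summed to between 2.07 and 4.68 CPM against 19.8 to 120 CPM, and all 4 tested genes were up-regulated, with log2 fold changes of 4.14 for Cxcl13, 5.51 for Ccl21a and 2.05 for Ackr1. Luteolin replicate 2 held the highest level of these 3 genes, and without it they were at 2.86, 3.45 and 0.88, where Ackr1 no longer passed. Ackr1 also missed the p limit without any 1 of the control libraries, with the replicate number as a block and with voom, where its log2 fold change was 0.94. Ccl21a missed the p limit without control replicate 2. Glycam1 and Chst4, which define high endothelial venules, and Ccl19 had 0 counts in all control libraries and did not pass the filter. In luteolin replicates 1, 2 and 3 Glycam1 had 13, 24 and 5 counts, Chst4 0, 12 and 40, and Ccl19 0, 41 and 28. The skin keratinocyte markers summed to between 182 and 196 CPM in the control libraries and to 600, 10813 and 165 CPM in luteolin replicates 1, 2 and 3. Of the 10 tested, 9 were up-regulated, and 5 genes of the list had 0 counts in all control libraries. Krt14 was 1 of these, and Krt10 had a log2 fold change of 7.51 with overlapping groups. Dsp, the most abundant gene of that list in the control libraries, had 172, 180 and 185 CPM in control replicates 1, 2 and 3. It had 142 CPM in luteolin replicate 3, so Dsp made up most of the sums of these libraries. Dsp had a log2 fold change of 1.75 and did not pass the test, and it was at -0.07 without luteolin replicate 2. In 8 of the 11 genes of the list every luteolin library was above every control library, as in 15.8% of all genes tested. Sele, Selp, Selplg and Icam1 followed the same order among the luteolin libraries, with replicate 2 the highest and replicate 3 the lowest. So did the summed keratinocyte, endothelial, pan-leukocyte, neutrophil, platelet and high endothelial venule markers, but not those of T cells, macrophages, B cells and hepatocytes. The part of skin or of any of these cell types in the levels of Sele, Selp, Selplg and Icam1 was not tested.

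The label of the tumour was checked against hepatocyte and hepatoma markers, which summed to between 45.8 and 134 CPM in the control libraries and 77.0 to 189 CPM in the luteolin libraries. Afp had 56.5 ± 11.9 CPM (control) and 37.6 ± 4.54 CPM (luteolin; SD, n = 3 each), and Alb had log2 fold change 1.57 without passing the test. Gpc3 was the 1 gene of 7 tested that was up-regulated, with a log2 fold change of 2.73. Hnf4a, a defining hepatocyte factor, did not pass the filter on low counts.

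**Figure D4:**
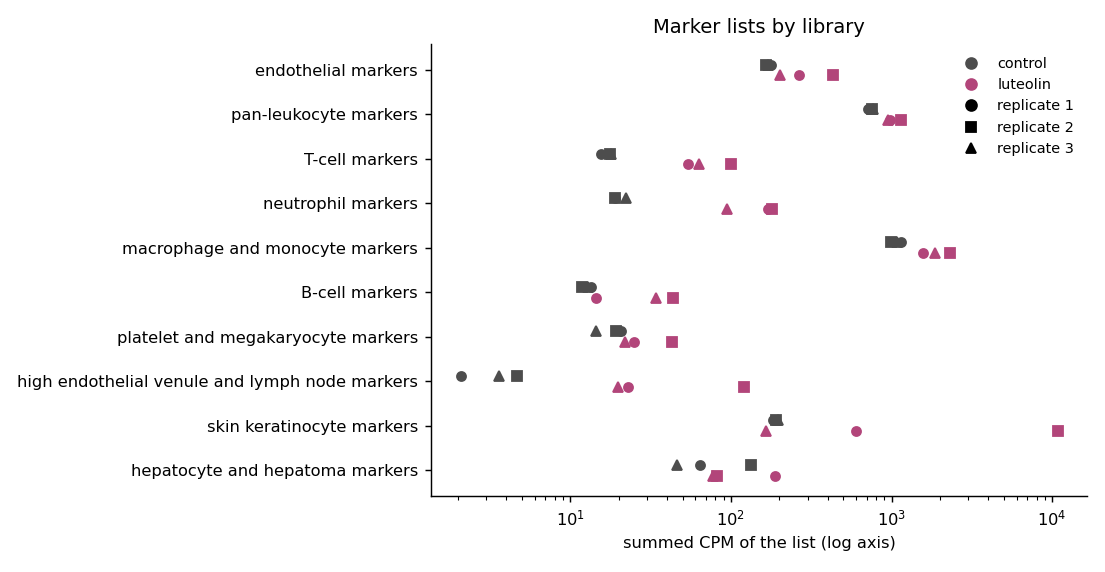
Summed CPM of each marker list (horizontal axis, log scale) in each library; colours are groups and symbols replicates. The luteolin libraries lie to the right of all control libraries for every list but the keratinocyte and hepatocyte markers, and the keratinocyte markers span from 165 to 10813 CPM among the luteolin libraries. Dsp makes up most of the keratinocyte sums of the control libraries and of luteolin replicate 3.

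Other genes of leukocyte adhesion were taken from 5 lists ordered by role, which held 86 tested genes. At the study's threshold 25 of them were up-regulated and 0 down-regulated, beside 11.3% and 1.52% of all genes tested. An unadjusted p under 0.05 in either direction was found for 39 of the 86 and for 3061 of all 14963 genes tested. The median log2 fold change was 0.59 beside -0.01 for all genes tested. The partners of the selectins and the enzymes that make their ligands had 6 of 17 tested genes up-regulated and a median of 0.72. Spn, which encodes the leukocyte sialoprotein CD43, rose by 1.76 on the log2 scale, and B4galt1, a galactosyltransferase, had a log2 fold change of 0.72 with an edgeR adjusted p of 0.0768, under the fold change limit. Glg1, an E-selectin binding protein of the Golgi and the most abundant of the list, had a log2 fold change of -0.19 (edgeR adjusted p = 0.530).

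The other integrin genes had 3 of 14 up-regulated and a median of 0.64. These were Itgax, Itgad and Itgb3, the beta chain of platelet and endothelial integrins, which rose by 1.35 with an edgeR adjusted p of 0.0437. Itga5, the alpha chain of the fibronectin receptor, had a log2 fold change of 0.94, and Itgb1, the most abundant of the list, had 0.10 (edgeR adjusted p = 0.890). The integrin activation machinery had 4 of 21 tested genes up-regulated and a median of 0.31. Vav1, a guanine nucleotide exchange factor of haematopoietic cells, rose by 1.57 (edgeR adjusted p = 0.0437) and Cytip, which binds cytohesin and modulates adhesion, by 1.72. Tln1, the talin that links integrins to actin, had 310.3 ± 54.7 CPM (control) and 376 ± 52.1 CPM (luteolin; SD, n = 3 each), within the overlap of the groups.

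The transmigration and junction molecules had 2 of 17 genes up-regulated, a share near the 11.3% of all genes tested, and a median of 0.36. Thy1 rose by 2.07 (edgeR adjusted p = 0.0429) and Pecam1, which leukocytes use to cross endothelial junctions, by 1.05, while Msn, a membrane linker of the cortical actin, had 0.30 (edgeR adjusted p = 0.436). This count was 1 with the GC content and length offsets and without control replicate 1, control replicate 2 or luteolin replicate 2 and 4 without control replicate 3 or luteolin replicate 3. The list of cytokines and factors that induce endothelial adhesion molecules also held the NF-kappaB inhibitors Nfkbia and Tnfaip3. It had 10 of 17 genes up-regulated, Tnfaip3 among them, and a median of 1.04, so neither value covers inducers alone. The count was 6 without control replicate 2 or with the GC content and length offsets. Il1b, which encodes interleukin-1 beta, rose from 14.2 ± 2.87 to 114 ± 54.0 CPM (SD, n = 3 per group), which is 3.02 on the log2 scale (edgeR adjusted p = 0.0331). Tnfaip3, a feedback inhibitor of NF-kappaB, rose by 1.04 (edgeR adjusted p = 0.0393), and Irf1 had 0.27 (edgeR adjusted p = 0.382). Tnfaip3 was below the fold change limit with voom, at 0.99, and with the GC content and length offsets, at 0.85. The adjusted calls of Itgb3, Vav1, Thy1, Il1b and Tnfaip3 were all lost without any 1 of the control libraries and without luteolin replicate 1, where 0 of all genes passed in edgeR. Itgb3 and Tnfaip3 also lost theirs without luteolin replicate 3, and Itgb3 with no filter on low counts. With the replicate number as a block, Il1b alone of the 5 kept an adjusted p under 0.05.

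**Figure D5:**
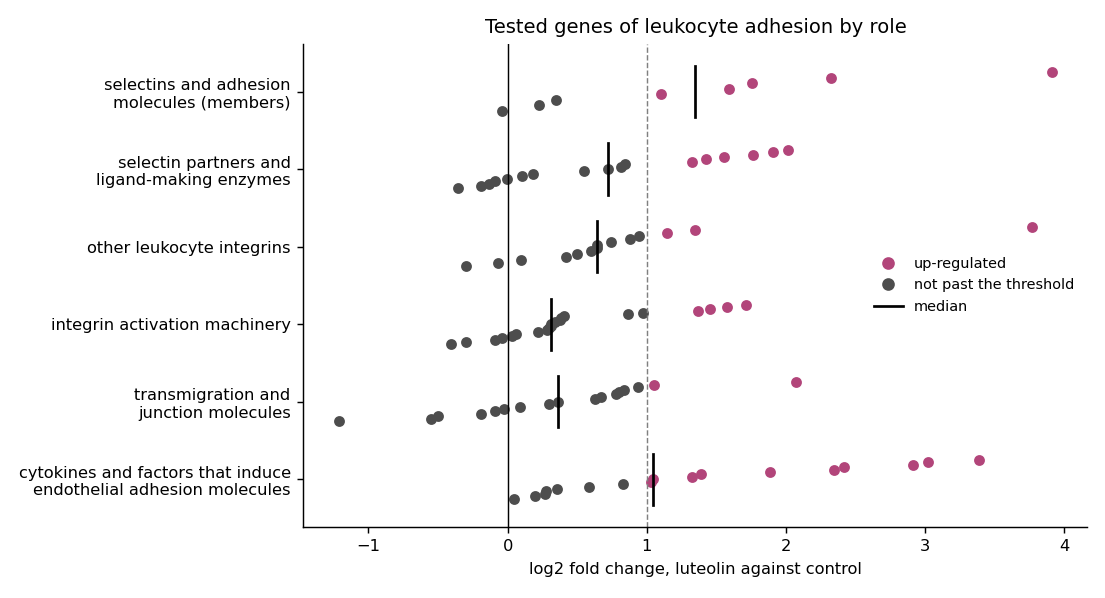
Log2 fold change, luteolin against control (horizontal axis), of each tested gene of the 9 adhesion genes and of the 5 lists of related genes; each point is a gene, coloured where it was up-regulated, and black lines are medians. Medians range from 0.31 for the integrin activation machinery to 1.35 for the adhesion genes.

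The genes whose profile over the 6 libraries was most like that of each adhesion gene were found by the root mean square difference of log2 CPM, each gene centred on its own mean. For Icam1 the nearest were Plcg2 at 0.0603 and Mark1 at 0.101 on the log2 scale. For Selplg they were Myo1g at 0.0806 and Abcg1 at 0.0964, and for Itgal they were Cxcl16 at 0.0774 and Tnfrsf1b, the gene of a TNF receptor, at 0.0824. Selp was nearest to Cbr2 at 0.175 and to the chemokine gene Cxcl12 at 0.192. Sele had no close match, with G0s2 at 0.433 and Slco2b1 at 0.462. Vcam1 was nearest to Gpr15 at 0.0548 and Serpine2 at 0.116, Itgam to Zfp114 at 0.148 and Zc3h12b at 0.169, and Itgb2 to Slc29a3 at 0.0322 and Ppp1r2 at 0.0375. With 6 libraries and 14963 genes, such closeness is a description of these profiles.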

How the data were processed

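Whole H22 tumours were sequenced, with 3 libraries per group. The table that the authors deposited gives each gene a whole number in every library, not scaled between libraries, and these were treated as estimated counts because 44.8% of the values from 1 to 40 are multiples of 4. The submitters' processing notes name bcl2fastq 2.0, HISAT2, StringTie and DESeq2 with the builds mm39 and rn6. The annotation and the strand setting are not given in the sources used here, so reads of overlapping genes may be shared. The labels name an RNeasy and a SMARTer kit, and the paper a Trizol extraction and a TruSeq kit. Totals ranged from 61081637 to 80442954 counts, and 0 columns were left out.

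Groups were compared by the two-sided quasi-likelihood test of edgeR 4.0.16 (R 4.3.3) after filterByExpr and TMM normalization, with no covariates and with Benjamini-Hochberg adjustment over 14963 genes. CPM are scaled to the TMM-normalized total and log2 CPM have a prior count of 2. Alternatives were DESeq2 1.42.0, voom of limma 3.58.1 with sample quality weights, RLE and upper-quartile normalization, no filter, at least 10 counts in every library, a block on the replicate number, and each library left out. Offsets for GC content and length (splines with 4 and 3 degrees of freedom) and values divided by 4 were added after the data had been seen. The pipeline was tested on simulated counts.

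The genes and lists were chosen with earlier results of these data known. Named are the 9 genes, the 2 genes with the smallest p and the most abundant gene of each related list, the 3 most abundant genes of each marker list, the 2 genes nearest in profile, and, chosen after their values were seen, genes next to one of the 9 and markers at or near 0. Some results on withheld items are not reported here.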

Additional observations from a re-analysis of the deposited data

How the results depend on the processing

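The 5 adhesion genes that passed the study's threshold had the same direction under all 15 alternatives in which they were tested, and 4 or 5 of them passed it. Itgal was under the fold change limit with voom, with the GC content and length offsets and without luteolin replicate 2, and Sele was not tested with at least 10 counts in every library or with values divided by 4. The number of adhesion genes at an adjusted p under 0.05 depended on the setting. It was 0 in edgeR as reported, 5 in DESeq2, 4 with voom (where 12.6% of all genes were higher by this rule), 5 with the GC content and length offsets, 2 with at least 10 counts in every library and 2 with values divided by 4, the last 3 also in edgeR. With 1 library left out it ranged from 0 to 1. The GC content and length offsets moved the median of all genes to -0.24, and against it Sele stood at 3.90, Selp at 2.27, Selplg at 1.61, Icam1 at 1.47 and Itgal at 1.06.

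With the replicate number as a block, 5 adhesion genes passed the study's threshold (8.64% of all genes did, higher) and 0 an adjusted p under 0.05, while 35 of all genes did in place of 228. The numbers were not found to pair the libraries, since same-numbered libraries had correlations of deviations of -0.20, -0.09 and 0.06 over genes. The number of related genes up-regulated was 21 with the block.

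Some genes changed sign without passing the threshold, most of them near 0, but Dsp, at 1.75 with all libraries, did so without luteolin replicate 2. With the GC content and length offsets Itgam was at -0.0315, Itgb1 at -0.0591, Irf1 at -0.0319, Zfp114 at -0.0775, Slc29a3 at -0.253 and Ppp1r2 at -0.121. Slc29a3 was at -0.00123 with DESeq2, -0.00115 with RLE normalization, -0.0659 with voom and -0.0108 with no filter, and Ppp1r2 at -0.0702 and -0.00602 with the last 2. Upper-quartile normalization gave 0.00444 for Itgb2 and 0.0139 for Itga2b. With 1 library left out, log2 fold changes ranged from -0.11 to 0.45 for Itgam, -0.10 to 0.0404 for Itgb2, -0.11 to 0.32 for Itgb1, -0.27 to 0.0777 for Itga2b, -0.37 to 0.0918 for Gp1ba, -0.0696 to 2.17 for Dsp, -0.0313 to 0.50 for Serpine2, -0.21 to 0.40 for Zfp114, -0.0821 to 0.62 for Zc3h12b, -0.0575 to 0.0852 for Slc29a3 and -0.0494 to 0.10 for Ppp1r2. The median difference of the 9 genes from their reference markers was 0.58 and ranged from -0.0831 (without luteolin replicate 3) to 0.67. The cause of these changes was not tested. Depth limited Madcam1 and the control level of Sele.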
